A study of Mus musculus with 14 samples.

Results

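Spp1 and 9 further genes that are widely used to describe lipid-associated macrophages (Gpnmb, Trem2, Tyrobp, Cd9, Fabp5, Fabp4, Lgals3, Lpl and Plin2) were followed in primary bone marrow-derived macrophages (pBMDMs) exposed to supernatants of ferroptotic or living fibroblasts. The genes were taken by symbol, and all 10 were found among the 55414 genes of the table. All 10 were also among the 12851 genes with enough reads to be tested, so none was lost to the filter on low counts. The pBMDMs came from wildtype C57BL/6N mice and were differentiated with the growth factor M-CSF, which was present in every group. The supernatants came from Pfa1 cells, a mouse embryonic fibroblast line in which 4-hydroxytamoxifen (4OHT) deletes Gpx4, the peroxidase that keeps membrane lipids from ferroptotic peroxidation. pBMDMs received filtered supernatant for 24 h from untreated fibroblasts (ctrl, n = 3), from fibroblasts given 4OHT (4OHT, n = 3), from fibroblasts given 4OHT with the ferroptosis inhibitor ferrostatin-1 (4OHT+Fer1, n = 3) or from fibroblasts given ferrostatin-1 alone (Fer1, n = 3). The remaining group received fresh medium (medium, n = 2) and so met no fibroblast product at all. The labels call the 4OHT supernatant ferroptotic and the ctrl, Fer1 and 4OHT+Fer1 supernatants non-ferroptotic. 4OHT and ferrostatin-1 may have been carried over with the supernatants, so their direct action on the macrophages cannot be told apart from that of the fibroblast products.

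Lipid-associated macrophages are a state described in obese fat, atherosclerotic plaque, fatty liver and the injured brain, where macrophages take up lipid and cell debris. TREM2 is a surface receptor for lipids and dead cell material that signals through its adaptor DAP12, the product of Tyrobp. Cells in this state handle fatty acids through LPL, which releases them from lipoproteins, through the carriers FABP4 and FABP5, and through PLIN2, which coats lipid droplets. They also make the secreted glycoprotein osteopontin (Spp1), which binds integrins and CD44, the transmembrane glycoprotein GPNMB, the tetraspanin CD9 and the galactose-binding lectin galectin-3 (Lgals3). Osteopontin is made in quantity by cultured macrophages as well, so its transcript is not confined to lipid-laden cells.

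Libraries were made from the 3′ ends of transcripts and held 7823050 to 11052400 estimated counts each. Levels are given as CPM, in which the trimmed mean of M-values sets the scale of each library. They are not divided by transcript length because each transcript gives 1 tag. Below they are compared mainly between groups. A log2 fold change comes from edgeR's quasi-likelihood model over all 14 libraries with the replicate number as a term, and its adjusted p is by Benjamini-Hochberg over the 12851 genes. A gene was called where the absolute log2 fold change exceeded 1 and the adjusted p was under 0.05. The 10 macrophage markers, led by Lyz2, summed to 19940 to 28955 CPM in ctrl and 22708 to 28901 CPM in Fer1. They summed to 23345 to 30005 CPM in 4OHT+Fer1, 29304 to 45560 CPM in 4OHT and 28622 to 35521 CPM in medium. Fibroblast markers summed to 20.4 to 53.4 CPM in ctrl, 21.8 to 128 CPM in Fer1, 16.9 to 103.3 CPM in 4OHT+Fer1, 19.4 to 61.2 CPM in 4OHT and 37.9 to 116 CPM in medium, adipocyte markers to at most 0.421 CPM with Adipoq, Lep, Plin1, Cidec and Cfd at 0 in every library, and dendritic and lymphocyte markers to at most 1.59 and 0.940 CPM. Granulocyte markers summed to 6.98 to 11.4 CPM in medium and to at most 6.53 CPM elsewhere, and osteoclast markers to 49.4 to 66.9 CPM. Ctrl replicate 3 and 4OHT+Fer1 replicate 1 stood apart, in that their deviations followed the GC content of the 3′ end across genes (r = -0.33 and -0.32, against -0.09 to 0.24 in the other 12 libraries). Each supernatant group had its highest mitochondrial share in replicate 3, at 8.50% to 10.6% of counts. In replicates 1 and 2 of these groups it was 4.53% to 6.61%. In bulk RNA, fewer cells that express a gene and less RNA per cell cannot be told apart.

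Promoter windows from RefSeq (GRCm38.p6), spanning 250 bases before to 50 bases after an annotated start, were found for 6 of the 10 genes. The windows of Spp1 and Gpnmb are printed because these genes moved in opposite directions in 4OHT, and that of Plin2 because it is the lipid droplet coat gene of the set. Capitals mark every match, on either strand, to 7 motifs: AP-1 (TGACTCA), RUNX (AACCACA), PU.1 (GAGGAAGT), the E-boxes CACGTG and CATGTG, the nuclear receptor site AGGTCA and the TATA box TATAAA.
Spp1, chr5:104434861-104435160, plus strand: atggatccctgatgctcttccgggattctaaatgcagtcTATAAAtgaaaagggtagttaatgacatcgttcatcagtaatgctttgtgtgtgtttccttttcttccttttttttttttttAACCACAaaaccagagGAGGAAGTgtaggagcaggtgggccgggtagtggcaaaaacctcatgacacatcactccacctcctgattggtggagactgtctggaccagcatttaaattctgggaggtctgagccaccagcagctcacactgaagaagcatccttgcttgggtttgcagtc
Gpnmb, chr6:49036268-49036567, plus strand: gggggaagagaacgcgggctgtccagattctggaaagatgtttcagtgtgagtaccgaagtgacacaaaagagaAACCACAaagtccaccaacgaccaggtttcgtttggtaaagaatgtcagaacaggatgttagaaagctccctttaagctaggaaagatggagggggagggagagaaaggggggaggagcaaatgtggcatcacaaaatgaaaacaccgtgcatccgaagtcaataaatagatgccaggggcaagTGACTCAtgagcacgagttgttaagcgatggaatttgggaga
Plin2, chr4:86670010-86670309, minus strand: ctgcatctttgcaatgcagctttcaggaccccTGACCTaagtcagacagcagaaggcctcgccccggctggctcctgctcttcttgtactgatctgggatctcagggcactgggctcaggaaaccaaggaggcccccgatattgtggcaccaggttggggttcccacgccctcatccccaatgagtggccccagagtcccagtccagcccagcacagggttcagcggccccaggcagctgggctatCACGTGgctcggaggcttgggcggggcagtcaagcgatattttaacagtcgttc
In the Spp1 window the RUNX letters began 129 bases and the PU.1 letters 113 bases before the start, without overlap, and a TATAAA lay 211 bases before it. The Gpnmb window held a RUNX match 176 bases before the start and an AP-1 match after it. In the Plin2 window a CACGTG E-box began 4 bases before the start, and an AGGTCA lay 218 bases before it on the opposite strand. Of all 32851 promoter windows, 5.27% held the RUNX letters, 3.20% those of PU.1, 13.6% TATAAA, 5.20% those of AP-1, 7.15% CACGTG, 14.2% CATGTG and 16.3% AGGTCA. The matches describe the letters of these windows and say nothing on binding in the macrophages. The Trem2 window held 1 AGGTCA, the Cd9 window 1 CATGTG, and the Lgals3 window and the second Spp1 window none of the 7 motifs.

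The level of Spp1 followed the supernatant and the replicate. In ctrl it stood at 2286, 2167 and 355 CPM in replicates 1, 2 and 3, and in Fer1 at 1981, 2604 and 228 CPM. In 4OHT+Fer1 it was 2315, 1417 and 192 CPM, in 4OHT 423, 492 and 159.9 CPM, and in medium 112 and 162 CPM in replicates 1 and 2. Replicate 3 was the lowest library of each supernatant group, and within every replicate number 4OHT lay below ctrl, Fer1 and 4OHT+Fer1. The ranges of 4OHT and ctrl overlapped only through the low replicate 3 of ctrl.

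Spp1 fell in 4OHT against ctrl, from 1603 ± 1082 CPM (SD, n = 3) to 358 ± 175 CPM (SD, n = 3). The log2 fold change was -1.81 (standard error 0.36, 95% interval -2.59 to -1.03, edgeR adjusted p = 0.0300). Within replicates 1, 2 and 3 the difference in log2 CPM was -2.43, -2.14 and -1.15, so the drop was shallowest where ctrl was already low. It was also lower in 4OHT than in Fer1 (log2 fold change -1.66, edgeR adjusted p = 0.0457), 1 of the 2 genes called in that comparison with Gpnmb, where 1.02% of all tested genes were called. Against 4OHT+Fer1 the log2 fold change was -1.38 (standard error 0.36, 95% interval -2.16 to -0.60), which missed the threshold (edgeR adjusted p = 0.102), with differences of -2.45, -1.53 and -0.26 within replicates 1 to 3. The call in 4OHT against ctrl was lost when the replicate term was dropped (log2 fold change -2.16, edgeR adjusted p = 0.672), and leaving out ctrl replicate 1, 2 or 3, Fer1 replicate 1, or 4OHT replicate 1 or 2 brought the adjusted p to between 0.0533 and 0.163. Without 4OHT replicate 3 the log2 fold change was -2.44 (edgeR adjusted p = 0.00450).

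Medium gave the lowest Spp1 of all 5 groups, at 137 ± 35.4 CPM (SD, n = 2). Both medium libraries lay below all 3 ctrl libraries, and the log2 fold change against ctrl was -4.02 (standard error 0.47, 95% interval -5.04 to -3.005, edgeR adjusted p = 0.000216). Within replicates 1 and 2 it was -4.34 and -3.74 in log2 CPM. Without the replicate term it was -3.54 and missed the threshold (edgeR adjusted p = 0.117). The 4OHT supernatant still left Spp1 above medium (log2 fold change 2.21, standard error 0.44, edgeR adjusted p = 0.0145), by 1.91 and 1.60 in log2 CPM in the 2 replicate numbers that both groups have, while 4OHT replicate 3, with no medium library of its number, fell within the medium range. In the annotation a low-count gene, Gm42793, overlaps Spp1 on the same strand. It had at most 4 counts per library, against 885 to 24990 for Spp1.

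**Figure D1:**
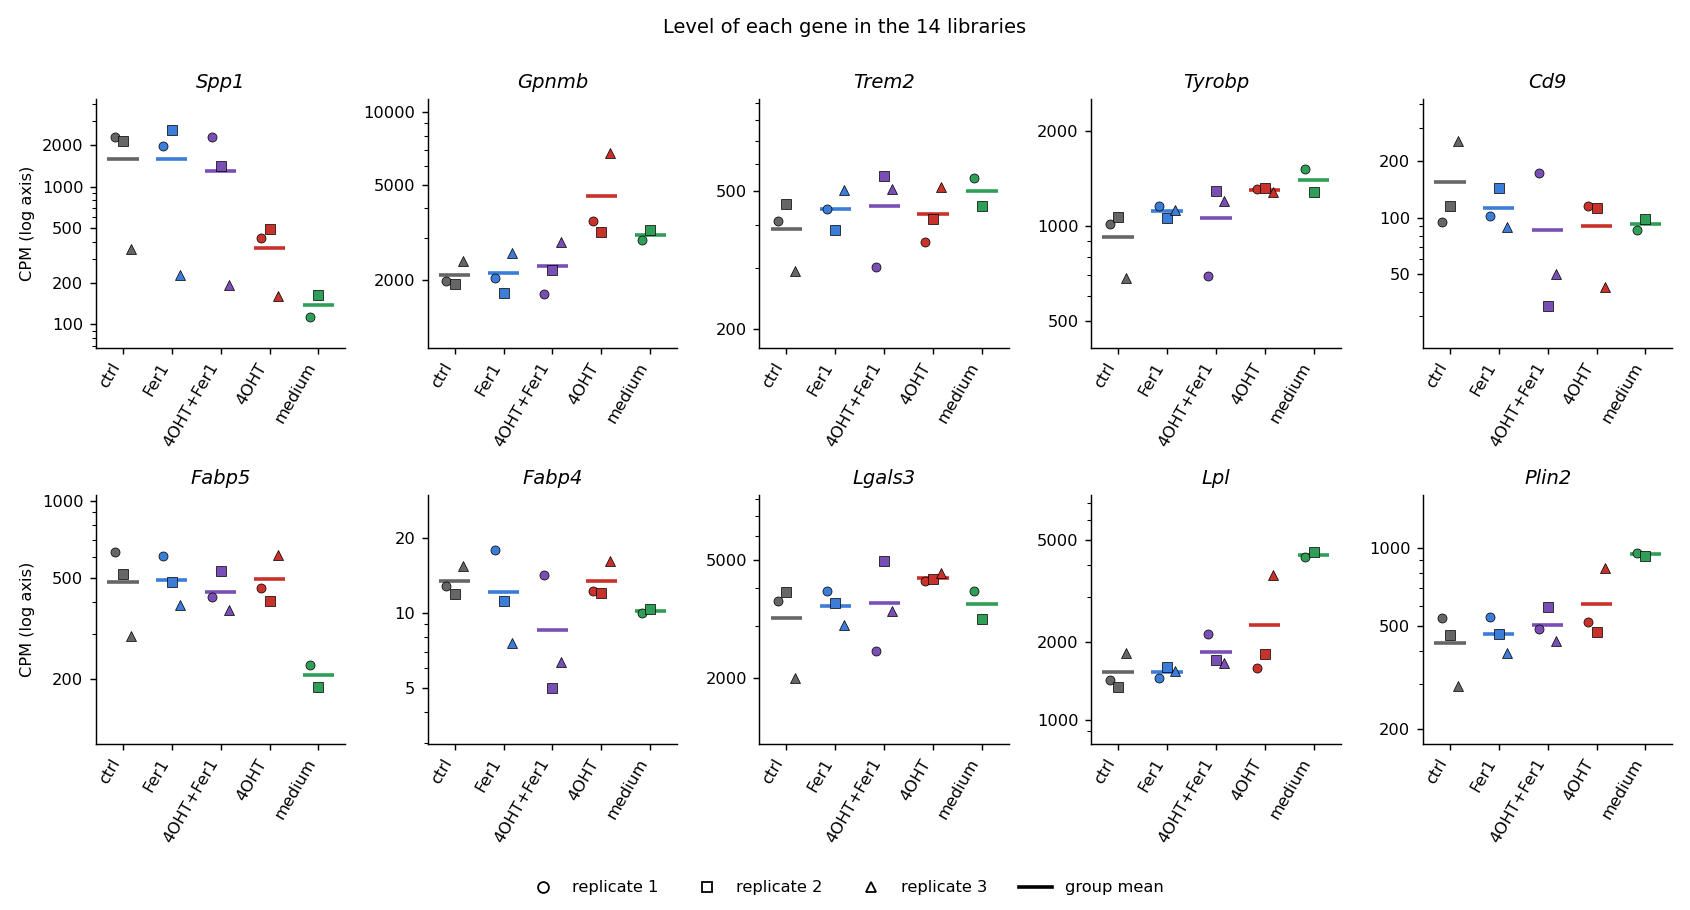
Level of each of the 10 genes in CPM (log axis, a separate range for each gene) in every library of ctrl, Fer1, 4OHT+Fer1, 4OHT and medium, with circles, squares and triangles for replicates 1, 2 and 3 and a bar at the group mean. Spp1 runs from 112 CPM in a medium library to 2604 CPM in a Fer1 library and is lowest in replicate 3 of each supernatant group, while Gpnmb is highest in the 3 libraries of 4OHT among the supernatant groups, at 3181 to 6801 CPM.

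Gpnmb moved the other way. GPNMB is a glycoprotein of lysosomes and the cell surface that macrophages make in quantity when they carry lipid or lysosomal load. Its level was 1984, 1933 and 2413 CPM in ctrl, 2046, 1779 and 2595 CPM in Fer1, and 1749.9, 2219.9 and 2891 CPM in 4OHT+Fer1. In 4OHT it was 3519, 3181 and 6801 CPM, and in medium 2939 and 3234 CPM. All 3 libraries of 4OHT lay above all 9 of the other supernatant groups, and replicate 3 of 4OHT was the highest of all 14 libraries.

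Gpnmb rose in 4OHT against ctrl by a log2 fold change of 1.02 (standard error 0.17, 95% interval 0.64 to 1.40, edgeR adjusted p = 0.0158), with 0.83, 0.72 and 1.49 in log2 CPM within replicates 1 to 3. Against Fer1 the log2 fold change was 1.02 (edgeR adjusted p = 0.0171). Against 4OHT+Fer1 it was 0.93 (standard error 0.17, 95% interval 0.55 to 1.31), which passed the adjusted p at 0.0279 (edgeR) but not the fold threshold. The fold in 4OHT against ctrl sat at the edge of the threshold of 1, at 0.82 without 4OHT replicate 3 (edgeR adjusted p = 0.0231) and at 0.90 without ctrl replicate 3 (edgeR adjusted p = 0.0420). Leaving out ctrl replicate 1 or 2 or 4OHT replicate 1 gave an adjusted p of 0.0566 to 0.0752 (edgeR), and leaving out the replicate term 1.09 with 0.196 (edgeR). In medium Gpnmb was 0.74 above ctrl on the log2 scale (standard error 0.19, edgeR adjusted p = 0.0294), again past the adjusted p alone, and the difference of 4OHT from medium did not pass (0.28, 95% interval -0.16 to 0.72, edgeR adjusted p = 0.594).

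Spp1 and Gpnmb were the 2 of the 10 genes called in 4OHT against ctrl, 1 lower and 1 higher, where 1.11% of all tested genes were called (0.35% higher and 0.763% lower). The other 8 genes had log2 fold changes of -0.91 to 0.58 and edgeR adjusted p of 0.386 to 0.996. The median over the 10 genes was 0.31, against 0.01 over all tested genes and 0.25 over the 10 macrophage markers, of which none passed. Between ctrl and 4OHT the libraries did not overlap for Gpnmb, Tyrobp and Lgals3, 3 of the 10 genes, where 11.1% of all tested genes did not overlap. Proliferation genes moved with the same groups: their summed level was 1438 to 1714 CPM in ctrl, 1369 to 1711 CPM in Fer1, 1433 to 1640 CPM in 4OHT+Fer1, 413 to 917 CPM in 4OHT and 330.2 to 360.4 CPM in medium, and 6 of the 15 passed as lower in 4OHT against ctrl, where 1.49% of all tested genes passed in either direction, and 12 of 15 in medium against ctrl, where 10.9% did. Their part in the differences of Spp1, Gpnmb and the other genes was not tested.

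**Figure D2:**
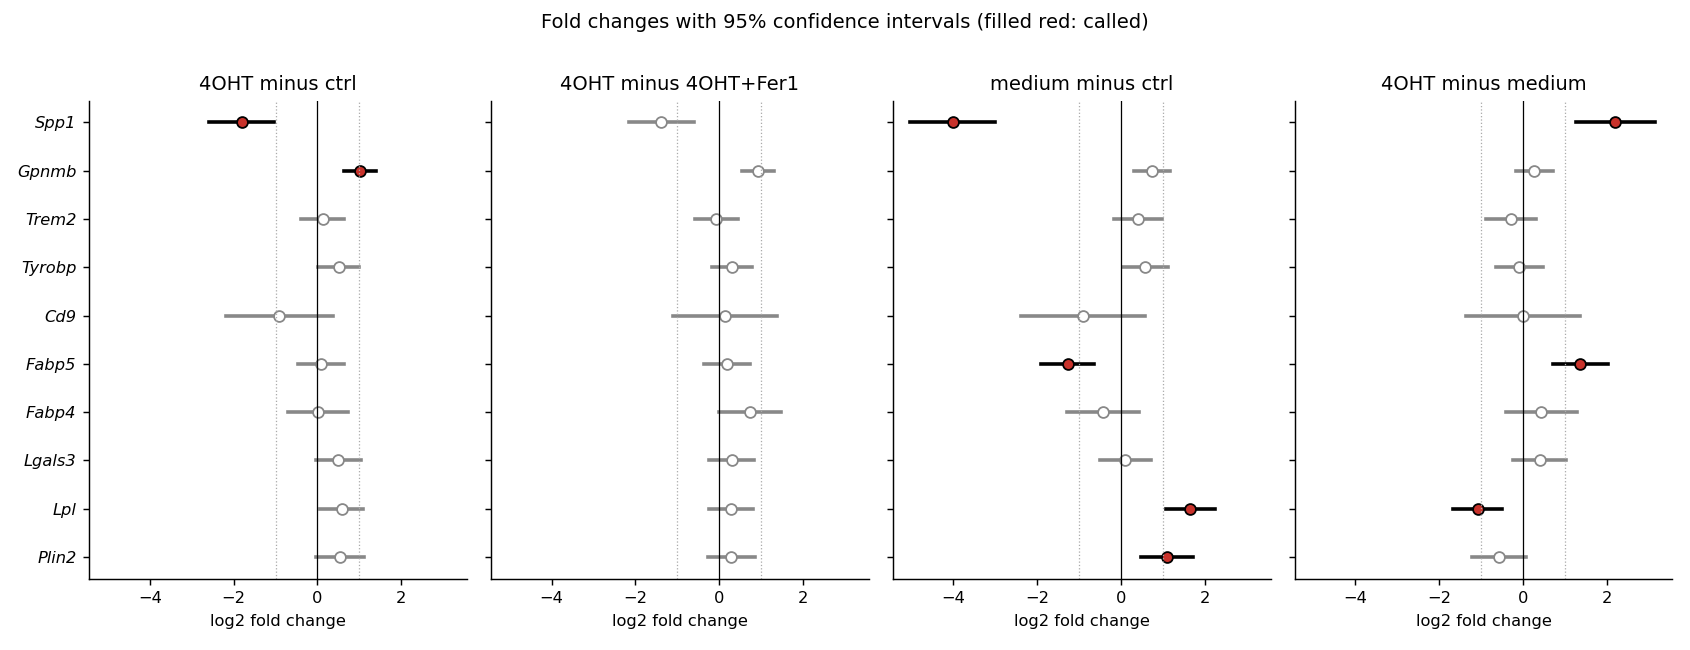
Log2 fold change (points) with its 95% confidence interval (lines) for the 10 genes in 4OHT minus ctrl, 4OHT minus 4OHT+Fer1, medium minus ctrl and 4OHT minus medium, with dotted lines at -1 and 1 and filled red points for called genes. Spp1 lies furthest from 0 in each of the 4 comparisons, from -4.02 in medium minus ctrl to 2.21 in 4OHT minus medium, and Gpnmb is the 1 gene called higher in 4OHT minus ctrl.

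The receptor pair of the state did not pass the test in any comparison of 4OHT or medium. Trem2 stood at 412, 459 and 295 CPM in ctrl, 443, 385 and 504 CPM in Fer1, 303, 552 and 509 CPM in 4OHT+Fer1, 356, 416 and 515 CPM in 4OHT, and 545 and 455 CPM in medium. The 5 groups overlapped, and the log2 fold change in 4OHT against ctrl was 0.13 (95% interval -0.39 to 0.64, edgeR adjusted p = 0.914). Its adaptor Tyrobp had 1017, 1068 and 686 CPM in ctrl, 1157, 1061 and 1127 CPM in Fer1, and 698, 1292 and 1198 CPM in 4OHT+Fer1. The 4OHT libraries, at 1314, 1318.5 and 1283 CPM, lay close together and above all 3 of ctrl, as did both medium libraries at 1516 and 1279.6 CPM. The log2 fold change of Tyrobp in 4OHT against ctrl was nevertheless 0.51 with an interval of 0.02 to 0.99 (edgeR adjusted p = 0.437), and in medium against ctrl 0.59 with an interval of 0.04 to 1.13 (edgeR adjusted p = 0.173).

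The surface proteins CD9 and galectin-3 gave no call either. CD9 organises membrane microdomains, and galectin-3 is secreted and also binds damaged lysosomes. Cd9 had 94.4, 115 and 256 CPM in ctrl, 102, 145 and 89.6 CPM in Fer1, 174, 33.8 and 49.9 CPM in 4OHT+Fer1, 115, 112 and 42.6 CPM in 4OHT, and 85.6 and 98.7 CPM in medium. The log2 fold change of Cd9 in 4OHT against ctrl was -0.91 with a wide interval of -2.18 to 0.36 (edgeR adjusted p = 0.672), and within replicates 1 to 3 it was 0.28, -0.04 and -2.58. Lgals3 had 3625, 3879 and 2005 CPM in ctrl, 3925, 3569 and 3006 CPM in Fer1, 2455, 4939.7 and 3355 CPM in 4OHT+Fer1, 4251, 4285 and 4508 CPM in 4OHT, and 3909.7 and 3164 CPM in medium. Its log2 fold change in 4OHT against ctrl was 0.50 (95% interval -0.04 to 1.04, edgeR adjusted p = 0.515).

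Ctrl replicate 3 and 4OHT+Fer1 replicate 1, the libraries that stood apart by GC content, held the lowest Trem2, Tyrobp and Lgals3 levels and the highest Cd9 levels of all 14. The 3′ ends of Trem2, Tyrobp and Lgals3 had 53.1%, 53.0% and 54.4% GC and that of Cd9 44.7%, against a median of 46.0% over tested genes. Without these 2 libraries the log2 fold change of Trem2 in 4OHT against ctrl was -0.11 (edgeR adjusted p = 0.836), and that of Spp1 was -1.93 (edgeR adjusted p = 0.0158). Beyond this refit and a fit with a correction for GC content, the part of GC content in the levels of these 4 genes was not tested. Cd9 is overlapped on the opposite strand by Gm28809 and Gm26728, with at most 13 and 2 counts in a library.

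Of the genes of fatty acid handling, Lpl and Plin2 were higher and Fabp5 lower in medium than in ctrl, and neither these 3 nor Fabp4 were called in 4OHT against ctrl. Lpl encodes the lipase that frees fatty acids from lipoproteins. Its level was 1428, 1342 and 1818 CPM in ctrl, 1457, 1598 and 1547 CPM in Fer1, 2151, 1713 and 1659 CPM in 4OHT+Fer1, 1591, 1798 and 3658 CPM in 4OHT, and 4304 and 4510.4 CPM in medium. Both medium libraries exceeded all 12 supernatant libraries, and 4OHT replicate 3 came next. Lpl was higher in medium than in ctrl by a log2 fold change of 1.66 (standard error 0.27, edgeR adjusted p = 0.00174), a call that was lost without replicate 1 (edgeR adjusted p = 0.0562) or replicate 2 (edgeR adjusted p = 0.171). It was lower in 4OHT than in medium by -1.08 (standard error 0.27, edgeR adjusted p = 0.0460). In 4OHT against ctrl it was 0.58 (95% interval 0.06 to 1.09, edgeR adjusted p = 0.386), with 0.16, 0.42 and 1.01 in log2 CPM within replicates 1 to 3.

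Plin2 codes for the protein that coats cytoplasmic lipid droplets. It had 539, 464 and 293 CPM in ctrl, 542, 467 and 393 CPM in Fer1, 489.6, 592 and 437 CPM in 4OHT+Fer1, 517, 475 and 843 CPM in 4OHT, and 964 and 931 CPM in medium. As for Lpl, the medium libraries were the highest and 4OHT replicate 3 was next. The log2 fold change in medium against ctrl was 1.10 (standard error 0.29, edgeR adjusted p = 0.0278). It was 0.92 without ctrl replicate 3 (edgeR adjusted p = 0.0414), and the adjusted p was 0.0725 to 0.173 without ctrl replicate 2 or either medium library. In 4OHT against ctrl it was 0.53 (95% interval -0.03 to 1.10, edgeR adjusted p = 0.500), which rested on replicate 3, since the differences in log2 CPM were -0.06, 0.03 and 1.52 within replicates 1 to 3.

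Fabp5, the fatty acid carrier that macrophages share with skin cells, ran opposite to Lpl and Plin2 in medium. It had 630.2, 517 and 295 CPM in ctrl, 605, 478 and 390.0 CPM in Fer1, 419, 529.9 and 372 CPM in 4OHT+Fer1, 456, 404 and 613 CPM in 4OHT, and 228 and 187 CPM in medium. Medium lay below every supernatant library. The log2 fold change was -1.28 in medium against ctrl (standard error 0.29, edgeR adjusted p = 0.0152) and 1.37 in 4OHT against medium (standard error 0.30, edgeR adjusted p = 0.0245), while 4OHT against ctrl gave 0.10 (95% interval -0.45 to 0.65, edgeR adjusted p = 0.941). Without ctrl replicate 1 or 2 or either medium library the adjusted p in medium against ctrl was 0.0645 to 0.141 (edgeR). The estimated counts of Fabp5 lay more than 0.0005 from a whole number in 13 of the 14 libraries, by at most 0.177 on counts of 1680.0 to 6227, and those of Lpl, Plin2 and Cd9 did in 4, 3 and 1 libraries, by at most 0.013. Fabp4, the carrier best known from fat cells and also induced in macrophages, stayed between 4.99 and 17.8 CPM in all 14 libraries, and its log2 fold change was 0.01 in 4OHT against ctrl (95% interval -0.71 to 0.73, edgeR adjusted p = 0.996) and -0.43 in medium against ctrl (95% interval -1.29 to 0.42, edgeR adjusted p = 0.559).

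Between medium and ctrl 4 of the 10 genes were called, Lpl and Plin2 higher and Spp1 and Fabp5 lower, where 7.79% of all tested genes were called (3.69% higher and 4.1% lower). The libraries of medium and ctrl did not overlap for 7 of the 10 genes, where 34.5% of all tested genes did not overlap. In 4OHT against medium 3 of the 10 were called, Spp1 and Fabp5 higher and Lpl lower, where 3.07% of all tested genes were called. The calls in 4OHT against medium were all lost without the replicate term, without either medium library, or without replicate 1 or 2, and medium has 2 libraries. Both comparisons share the medium libraries, and ctrl and 4OHT are shared with the comparison of 4OHT against ctrl, so they are not independent of each other. Of the fibroblast markers, 3 of 6 tested of 12 were called higher in medium than in ctrl. These were the collagen genes Col1a1 (1.17) and Col1a2 (1.22) and the mesenchymal factor gene Prrx1 (2.14), with edgeR adjusted p of 0.00851 to 0.0159, and each was lost without either medium library or without the replicate term. Col1a1 was also called lower in 4OHT against 4OHT+Fer1 (-1.14, edgeR adjusted p = 0.0456), which held in 1 of 14 fits that left out 1 library, and no fibroblast marker was called in 4OHT against ctrl. The other tested fibroblast markers did not pass in medium against ctrl, and they went in both directions. Loxl1 had 1.96 (edgeR adjusted p = 0.137), Postn 1.70 (edgeR adjusted p = 0.119) and Col3a1 -0.74 (edgeR adjusted p = 0.557). Summed, the 12 markers in medium (37.9 to 116 CPM) overlapped those in ctrl (20.4 to 53.4 CPM) and Fer1 (21.8 to 128 CPM). No fibroblast marker of the 12 was at 0 in every library. The osteoclast markers Dcstamp (3.33, edgeR adjusted p = 0.000324) and Mmp9 (3.12, edgeR adjusted p = 0.0302) were called higher in medium than in ctrl as well, 2 of 5 tested of 8. The osteoclast marker with the highest level, Nfatc1, had -0.51 (edgeR adjusted p = 0.0807). Acp5 had 1.14 (edgeR adjusted p = 0.0605) and Ctsk 0.83 (edgeR adjusted p = 0.582). Summed, the osteoclast markers were lower in medium (50.4 to 52.3 CPM) than in ctrl (55.3 to 61.4 CPM). Dcstamp passed in all 14 fits that left out 1 library, Mmp9 in 8 of the 13 that tested it, and neither passed without the replicate term. No cell type was called from these markers, and their part in the differences of the 10 genes was not tested.

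**Figure D3:**
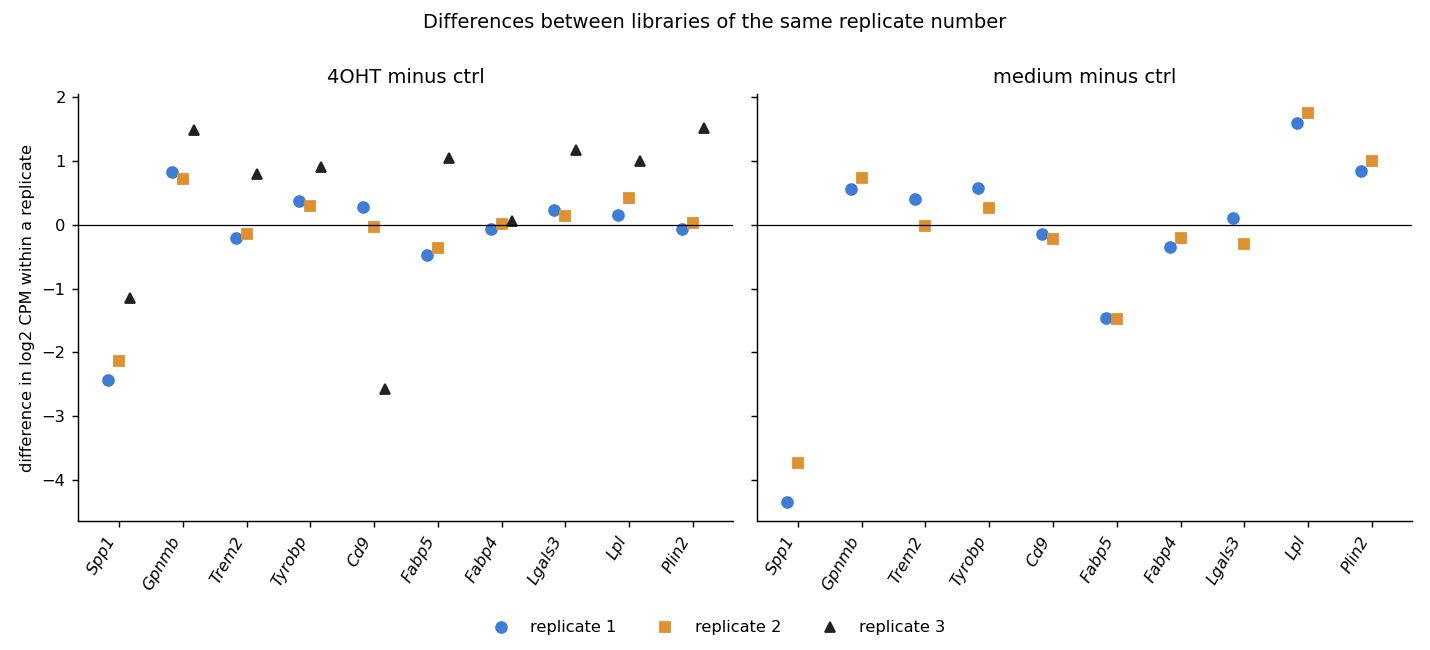
Difference in log2 CPM between libraries of the same replicate number for the 10 genes, for 4OHT minus ctrl (3 replicates) and medium minus ctrl (replicates 1 and 2). In 4OHT minus ctrl Spp1 is below 0 in all 3 replicates (-2.43, -2.14 and -1.15) and Gpnmb above 0 in all 3, whereas Plin2 stands at 1.52 in replicate 3 and within 0.06 of 0 in the others.

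With ferrostatin-1 on the fibroblasts as well as 4OHT, the mean levels of Spp1 and Gpnmb lay nearer to ctrl than to 4OHT, but the difference of effects did not pass the test. In 4OHT+Fer1 against ctrl none of the 10 genes was called in edgeR (0.0311% of all tested genes were) or DESeq2, and none had an unadjusted p under 0.05, with a log2 fold change of -0.43 for Spp1 (95% interval -1.18 to 0.32) and 0.09 for Gpnmb (95% interval -0.28 to 0.47). In 4OHT against 4OHT+Fer1 none of the 10 was called in edgeR (1.03% of all tested genes were), 3 had an unadjusted p under 0.05, and DESeq2 called 1, Spp1, as edgeR did without the filter on low counts. Over all genes DESeq2 called 228 here, against 132 in edgeR. The weakest of the 3, Fabp4 (unadjusted p = 0.0492, edgeR), ranked 1495 by p among the 12851 tested genes. Gpnmb alone passed the adjusted p in edgeR, as 1.35% of all tested genes did. The test of the difference itself, the effect of 4OHT without ferrostatin-1 minus that with it, gave -1.53 for Spp1 on the log2 scale (standard error 0.49, edgeR adjusted p = 0.519) and 0.94 for Gpnmb (standard error 0.25, edgeR adjusted p = 0.314). In edgeR it passed for none of the 10 genes, with 2 at an unadjusted p under 0.05, and for 4 of all tested genes (0.0311%), while in DESeq2 it passed for 1 of the 10, Gpnmb. Over all genes it passed for 86 in DESeq2. By p in edgeR, Gpnmb and Spp1 ranked 95 and 218 among the 12851 tested genes.

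In Fer1 against ctrl none of the 10 genes was called in edgeR or DESeq2, and none had an unadjusted p under 0.05. Over all tested genes edgeR called 0 (0%), with 146 genes (1.14%) at an unadjusted p under 0.05, and DESeq2 called 9. Uniform p-values would place a larger share of genes, 0.05, below that limit, so the lack of calls does not show a lack of change. The study's methods report DESeq2 p-values off the uniform null for this comparison and for 4OHT against ctrl. They took this as a sign of low sensitivity and recomputed the p-values, which was not done here. The log2 fold changes of the 10 genes ran from -0.54 for Cd9 to 0.28 for Tyrobp, with -0.15 for Spp1 (95% interval -0.90 to 0.60) and 0.01 for Gpnmb (95% interval -0.37 to 0.38). In 4OHT+Fer1 against Fer1 none of the 10 was called in edgeR (0.0233% of all tested genes were) or DESeq2, none had an unadjusted p under 0.05, and the log2 fold changes ran from -0.55 to 0.27.

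Ranked by group mean, few neighbours could be told apart. Spp1 ran from Fer1 (1604 CPM) through ctrl (1603 CPM), 4OHT+Fer1 (1308 CPM) and 4OHT (358 CPM) to medium (137 CPM), and of these steps the last passed the test. Gpnmb ran from 4OHT (4500.0 CPM) through medium (3086 CPM), 4OHT+Fer1 (2287 CPM) and Fer1 (2140.0 CPM) to ctrl (2109.8 CPM) with no step that passed, the closest being medium over 4OHT+Fer1 (log2 fold change 0.65, edgeR adjusted p = 0.0565). For Fabp5 the step from 4OHT+Fer1 (440.4 CPM) down to medium (208 CPM) passed (log2 fold change 1.18, edgeR adjusted p = 0.0246), and for Lpl the step from medium (4407 CPM) down to 4OHT (2349 CPM). No neighbouring groups were told apart for Trem2, Tyrobp, Cd9, Fabp4, Lgals3 or Plin2.

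Among 35 other genes of the lipid-associated or TREM2-dependent macrophage programme, 2 passed the adjusted p in 4OHT against ctrl in DESeq2. In edgeR 6 had an unadjusted p under 0.05 there, and 1 passed the adjusted p, as did 1.49% of all tested genes. This was Clec7a, the receptor Dectin-1 for fungal glucans, which was higher by a log2 fold change of 1.14 (standard error 0.19, edgeR adjusted p = 0.0153) and reached 0.998 in 4OHT against 4OHT+Fer1 (edgeR adjusted p = 0.0302). The first of these passed in 11 of 14 fits that left out 1 library and was lost without ctrl replicate 1 or 2 or 4OHT replicate 2 (highest adjusted p 0.0742), and the second passed in 8 of 14. Its mean was 148 CPM in ctrl, 359 CPM in 4OHT and 871 CPM in medium, where it was higher than in ctrl by 3.11 (edgeR adjusted p = 1.28e-05). Of the 35 genes 4 passed in medium against ctrl in edgeR, as did 10.9% of all tested genes, and 8 passed in DESeq2. In edgeR Clec7a and the elastase gene Mmp12 (0.92) passed as higher. The protease inhibitor gene Cst7 (-2.04) and the proton channel gene Hvcn1 (-0.75) passed as lower. With 1 library left out Mmp12 passed in 10 of 14 fits, Cst7 in 12 (-3.06 without medium replicate 1 and -1.38 without medium replicate 2) and Hvcn1 in 4 (-0.48 without medium replicate 1), and without the replicate term Mmp12 had -0.082. The medians of the list were 0.13 and 0.03, close to those of all tested genes (0.01 and 0.01).

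The signalling partners of DAP12 did not pass in 4OHT against ctrl in edgeR (0 of 19 tested, of 20 genes, with 5 at an unadjusted p under 0.05 and 1 that passed in DESeq2). For scale, Tyrobp with an unadjusted p of 0.0426 (edgeR) ranked 1255 by p among the 12851 tested genes in that comparison. Over all genes DESeq2 called 280 in it, against 143 in edgeR. Trem1, a receptor that amplifies inflammatory signals, had the smallest adjusted p, at a log2 fold change of -2.59 (SE 0.65, edgeR adjusted p = 0.0842) at a mean of 1.97 CPM in ctrl. In 4OHT against 4OHT+Fer1 the kinase gene Syk came first, at 0.51 (edgeR adjusted p = 0.292). In medium against ctrl 2 of the 19 passed, a share like the 10.9% of all tested genes. The DAP12-coupled receptor gene Clec5a was lower (-1.25, edgeR adjusted p = 0.0120) and passed in 12 of 14 fits that left out 1 library, the exceptions being those without a medium library. Hcst, whose product DAP10 is another adaptor, was higher (1.65, edgeR adjusted p = 0.0336) and passed in 7 of 14, at 0.79 without medium replicate 1 (edgeR adjusted p = 0.519) and 2.29 without medium replicate 2.

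Of the osteopontin receptors, 8 of 10 were tested. In edgeR 1 passed in 4OHT against ctrl and 3 in medium against ctrl, where 1.49% and 10.9% of all tested genes did. In 4OHT against ctrl 2 passed in DESeq2, and 3 had an unadjusted p under 0.05 in edgeR. These 3 included Itga9 at 1.01 (edgeR adjusted p = 0.0568) and Itgav at -0.59 (edgeR adjusted p = 0.264). Itga4, the alpha chain of the integrin VLA-4, was higher in 4OHT than in ctrl (log2 fold change 0.60, standard error 0.13, edgeR adjusted p = 0.0463) and in medium than in ctrl (1.34, edgeR adjusted p = 0.000170). In 4OHT against ctrl it passed in 2 of 14 fits that left out 1 library and in medium against ctrl in all 14. In 4OHT against 4OHT+Fer1 it had 0.51 (edgeR adjusted p = 0.0965). The integrin genes Itga9 (1.31, edgeR adjusted p = 0.00666) and Itgb3 (-1.06, edgeR adjusted p = 0.0491) also passed in medium against ctrl, in opposite directions, Itga9 in 13 and Itgb3 in 3 of the 14 such fits. The means of Itga4 were 152 CPM in ctrl, 139 CPM in Fer1, 161 CPM in 4OHT+Fer1, 227 CPM in 4OHT and 354 CPM in medium.

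Other lipid droplet and fatty acid genes did not pass in 4OHT against ctrl in edgeR (0 of 17 tested, of 30, with 5 at an unadjusted p under 0.05 and 1 that passed in DESeq2), with a median log2 fold change of 0.09. Acsl3, which activates fatty acids at the nascent droplet, came closest (-0.75, standard error 0.19, edgeR adjusted p = 0.0898), and had -0.64 in 4OHT against 4OHT+Fer1 (edgeR adjusted p = 0.169). Of the 17, 5 passed in medium against ctrl, beside 10.9% of all tested genes. Angptl4, a secreted inhibitor of LPL, rose by 1.89, the mitochondrial fatty acid importer gene Cpt1a by 0.89 and the triglyceride lipase gene Pnpla2 by 0.72 on the log2 scale, and Acsl3 fell by 1.48 (edgeR adjusted p of 0.00146 to 0.0199 for the 4). The monoglyceride lipase gene Mgll was the fifth, at 1.33 (edgeR adjusted p = 0.0380), with a mean of 3.05 CPM in ctrl and 3.01 CPM in medium. It passed in 3 of 14 fits that left out 1 library and had -0.0066 without the replicate term.

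Of 15 tested regulators of these programmes, 2 passed in 4OHT against ctrl (1.49% of all tested genes did) and 4 in medium against ctrl (10.9% did). Nr1h3, which encodes the oxysterol receptor LXR-alpha, rose in 4OHT against ctrl (log2 fold change 1.37, standard error 0.27, edgeR adjusted p = 0.0270), and the myeloid factor gene Cebpa rose by 0.71 (standard error 0.13, edgeR adjusted p = 0.0197). With 1 library left out Nr1h3 passed in 4 of 14 fits (highest adjusted p 0.116) and Cebpa in 10 of 14 (highest adjusted p 0.103). Nr1h3 had a mean of 4.50 CPM in ctrl, 13.2 CPM in 4OHT and 20.6 CPM in medium. Between medium and ctrl Nr1h3 (2.58), Cebpa (1.49) and the lysosomal regulator gene Tfeb (0.88) were higher and the E-box repressor gene Bhlhe41 was lower (-2.62), with edgeR adjusted p of 7.29e-05 to 0.0107. None of the regulators passed in 4OHT against 4OHT+Fer1 in edgeR (5 had an unadjusted p under 0.05, and 1 passed in DESeq2), where Cebpa came closest (0.52, edgeR adjusted p = 0.0780). Of 11 tested tetraspanins and galectins other than Cd9 and Lgals3, none passed in 4OHT against ctrl in edgeR or DESeq2 (1 had an unadjusted p under 0.05), and Cd81 had the smallest adjusted p (-0.30, edgeR adjusted p = 0.385). Cd81 fell in medium against ctrl by 0.89 on the log2 scale (edgeR adjusted p = 0.00194), and in 4OHT against 4OHT+Fer1 it had -0.30 (edgeR adjusted p = 0.368). Of the 19 genes of these lists named as passing in medium against ctrl, 7 passed in each of the 14 fits that left out 1 library (Clec7a, Itga4, Acsl3, Cebpa, Nr1h3, Bhlhe41 and Cd81). Without the replicate term 5 of the 19 passed, and none of the 4 named as passing in 4OHT against ctrl did. Among the osteoclast markers Dcstamp, a fusion protein gene, was called in 4OHT against ctrl (2.05, standard error 0.37, edgeR adjusted p = 0.0205), 1 of 5 tested. It passed in 8 of 14 fits that left out 1 library, was lost without any 1 of the ctrl or 4OHT libraries (highest adjusted p 0.0932) and without the replicate term (edgeR adjusted p = 0.814), and had 1.26 in 4OHT against 4OHT+Fer1 (edgeR adjusted p = 0.123).

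**Figure D4:**
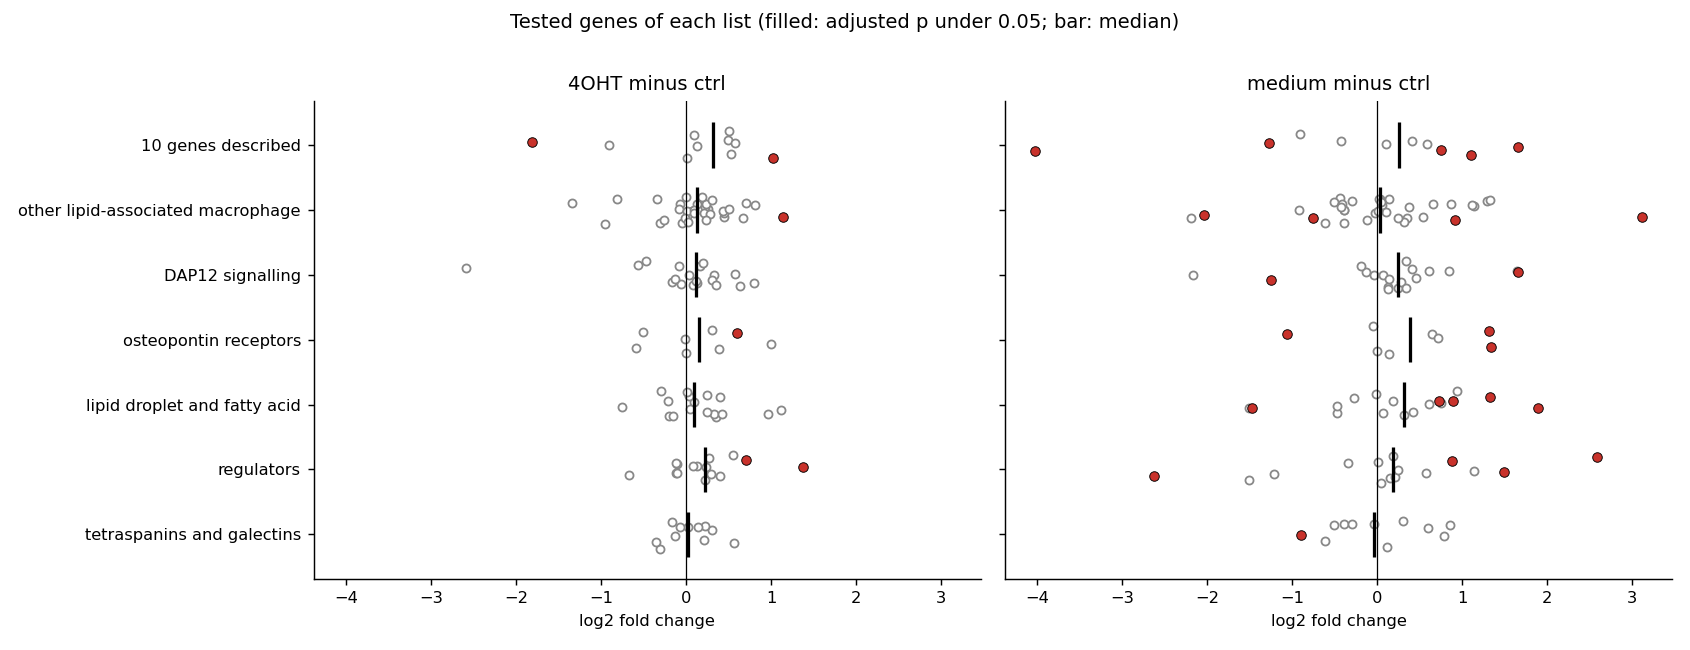
Log2 fold change of every tested gene (points, spread vertically at random) in the 10 genes and 6 further lists, for 4OHT minus ctrl and medium minus ctrl, with filled points for an adjusted p under 0.05 and a bar at each list's median. The medians lie between 0.03 and 0.31 in 4OHT minus ctrl, where 6 genes are filled, and the filled genes of medium minus ctrl fall on both sides of 0, from -4.02 for Spp1 to 3.11 for Clec7a.

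The 10 genes did not vary as a block across the 14 libraries. Pearson's r of log2 CPM was taken after the mean of each replicate number was subtracted, and is given as a description over libraries that share groups and replicate numbers. It was highest for Lpl with Plin2 (0.862), Trem2 with Tyrobp (0.825) and Tyrobp with Lgals3 (0.822), and lowest for Trem2 with Cd9 (-0.847) and Cd9 with Lgals3 (-0.827), the genes that differed in the 2 libraries with a GC deviation. Spp1 ran against Lpl (-0.764) and Gpnmb (-0.693). Replicate 3 has no medium library, so its mean covers fewer groups than those of replicates 1 and 2. For genes that differ in medium, such as Spp1 and Lpl, this shifts replicates 1 and 2 against replicate 3. The effect of this shift on r was not tested.

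By the same measure over the 14 libraries, the 5 tested genes most like Spp1, leaving out predicted genes without a proper symbol, were Acsl3 (r = 0.977), the retinol dehydrogenase gene Rdh11 (0.974), Bhlhe41 (0.970), Psmc3ip (0.967) and Mkks (0.966). Of these Psmc3ip had a low level, with a mean of 1.15 CPM. For Gpnmb they were Fam20c (0.944), a secretory pathway kinase gene, and Vps41 (0.932), which serves lysosomal trafficking. The closest were Actb (0.986) and Emp3 (0.975) for Trem2, Ptpn18 (0.981) and Clasp2 (0.965) for Tyrobp, and Slc25a5 (0.982) and Mrpl39 (0.981) for Cd9. They were Trrap (0.964) and Pmp22 (0.958) for Lgals3, Pomk (0.944) and Cdk4 (0.943) for Fabp5, and Gas2 (0.914, at a low mean of 1.27 CPM) and Snapc1 (0.866) for Fabp4. Lpl was most like Pcdh7 (0.977) and Cacna1a (0.971), and Plin2 most like Rasgef1b (0.969) and Slamf7 (0.968).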

How the data were processed

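Per the labels and the study's methods, RNA of 14 pBMDM samples was converted to QuantSeq 3′ libraries, aligned with STAR 2.7.10a and quantified with Salmon 1.5.2 in the nf-core RNA-seq pipeline. The processing notes list GRCh38 and GRCm38 without their roles, and the gene identifiers are those of mouse. The authors deposited the estimated counts per gene (expected counts) that Salmon gave, unscaled, which were rounded to whole numbers here. A second deposited table with the authors' own DESeq2 comparisons and 14 per-sample columns was not used.

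Genes were kept by filterByExpr (minimum count 10, 12851 of 55414), scaled by TMM and fitted in edgeR 4.0.16 (R 4.3.3, limma 3.58.1) with group and replicate number, all 14 libraries in 1 fit, with Benjamini-Hochberg adjustment over all genes tested. The replicate number in the titles was taken as the mouse, because the study's model held mouse ID. Same-numbered libraries deviated together (median r 0.247 over 26 pairs, 21 above 0.1, against -0.139 over 52 other pairs). Deviations were taken from group means, so they cancel within a group, and the medium libraries mirror each other. The r of the other pairs is therefore tied to that of same-numbered pairs and is no independent contrast. Nothing in the labels names separate cultures, so p-values measure the spread between these samples. TMM factors were 0.910 to 1.06. Replicates differed by more than sampling noise (chi-square per degree of freedom 11.7 to 86.7). The log2 CPM used a prior count of 2. GC content was taken over the last 400 bases of transcripts (GENCODE M21) for 99.7% of tested genes. The script was tested on simulated data. Alternatives were DESeq2 1.42.0, other scalings and filters, no replicate term, only the groups compared and left-out libraries. A correction for GC content and the removal of single libraries were added after the data were seen.

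The 10 genes and all lists were chosen with earlier results of these data known. From the other lists, those that passed the adjusted p in medium against ctrl, 4OHT against 4OHT+Fer1 or 4OHT against ctrl were named (up to 5 per list and comparison, otherwise the smallest adjusted p), with the genes of highest correlation (5 for Spp1, 2 for each of the others). Dcstamp, Mmp9, Col1a1, Col1a2, Prrx1, Loxl1, Postn, Col3a1 and Itgav were named after their values were seen.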

Additional observations from a re-analysis of the deposited data

How the results depend on the processing

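Spp1 fell and Gpnmb rose in 4OHT against ctrl under every alternative tried, but their calls depended on the setting. Of the 10 genes 2 were called, and 2 were also called with DESeq2, without the filter on low counts or with a GC correction. Without the replicate block none was called, and with only the groups compared none was called either. Scaling by library size alone gave 1, and leaving out both libraries that stood apart by GC content gave 1. Leaving out a replicate or a single library gave 0 to 2, and leaving out replicate 1, replicate 2, any of the 3 ctrl libraries or 4OHT replicate 1 gave 0. In 4OHT against 4OHT+Fer1, where none was called, DESeq2 and no filter on low counts each called 1 (Spp1), and no threshold on the fold gave 1 (Gpnmb). Leaving out replicates gave 0 to 1 there, with Spp1 called at -2.02 without replicate 3. In medium against ctrl the 4 calls became 1 to 4 when replicates or libraries were left out, with Spp1 among them each time. In 4OHT against medium the 3 calls became 0 without the block and 0 to 3 when replicates were left out. The ferrostatin-1 difference gave 1 call with DESeq2 (Gpnmb) and 0 to 1 when replicates were left out (Spp1 without 4OHT replicate 3). Some of these settings leave fewer samples and others keep all 14 libraries, and the cause of these changes was not tested. With the pairing of replicate numbers dropped, Spp1 in medium against ctrl kept its direction at -3.54 but not its call (edgeR adjusted p = 0.117). Of the genes named from the other lists, Mmp12 and Mgll turned in medium against ctrl when the block was dropped, to -0.082 and -0.0066.

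Among the 10 genes, directions turned for those that were not called in the comparison. In 4OHT against ctrl, leaving out replicates or libraries moved the log2 fold change of Trem2 between -0.19 and 0.30, Cd9 between -1.40 and 0.090, Fabp5 between -0.42 and 0.38, Fabp4 between -0.26 and 0.24, and Plin2 between -0.024 and 0.83. Without both libraries that stood apart by GC content Trem2 was -0.11 and Fabp5 -0.17, and Fabp4 was -0.026 with library size only and -0.0036 without the filter. In 4OHT against 4OHT+Fer1 the same omissions moved Trem2 between -0.30 and 0.12, Cd9 between -0.47 and 1.18, Fabp5 between -0.23 and 0.47, Lpl between -0.17 and 0.65, and Plin2 between -0.19 and 0.58. In medium against ctrl Lgals3 moved between -0.19 and 0.40 under omissions, and was -0.025 with library size only, -0.12 with only the groups compared and -0.13 without the 2 libraries.

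The limits are 3 libraries per group, 2 in medium, and a replicate number whose meaning as the mouse was assumed. Where an omission left a group with 1 library, that library was assumed to vary like the other groups. Depth does not limit the 10 genes, of which Fabp4 was the lowest at 4.99 CPM, against at most 0.4 CPM for 3 counts.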
